A study of Mus musculus with 10 samples.

Results

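The Cyp4f genes encode cytochrome P450 enzymes of the endoplasmic reticulum. These genes specify hydroxylases that act at or near the terminal (omega) carbon of fatty acids, leukotrienes and side chains of vitamins E and K. They were followed here in liver RNA as 6 genes chosen by symbol, Cyp4f13, Cyp4f14, Cyp4f15, Cyp4f16, Cyp4f17 and Cyp4f18, of 16874 genes in the deposited expression table. The RNA came from male C57BL/6 mice of 20 to 30 g, in all of which Pparg, encoding the nuclear receptor PPAR gamma, had been knocked out in the liver. One group was gavaged with 0.5% CMC (carboxymethylcellulose, the vehicle) and the other with DEHP, the phthalate plasticizer di(2-ethylhexyl) phthalate, at 2500 mg/kg body weight. Each group had 12 mice by the labels, of which 5 libraries were analysed here, named CMC 1 to 5 and DEHP 1 to 5. The sources used here do not give the length of treatment, the age of the mice or the Cre driver of the knockout, no label ties a library to a mouse, and no libraries without the knockout were analysed here. The p-values therefore measure the spread between these samples, and no difference can be assigned to the knockout.

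Omega-hydroxylation adds a hydroxyl group to the end of a lipid chain, which alcohol and aldehyde dehydrogenases can then oxidize to a dicarboxylic acid. Several Cyp4f enzymes share this reaction with the Cyp4a enzymes, whose genes are textbook targets of the receptor PPAR alpha in rodent liver. For leukotriene B4, a neutrophil attractant, hydroxylation is a step of inactivation, and for vitamin E it is the first step of side-chain breakdown. In the mouse, Cyp4f14 is known as a liver enzyme that acts on leukotriene B4 and vitamin E, and Cyp4f18 as the leukotriene B4 hydroxylase of neutrophils. The comparison asks how this gene family stood after DEHP.

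In the coordinates of GRCm38.p6 (RefSeq gene table), 5 of the 6 genes lie together on chromosome 17. Cyp4f17 occupies chr17:32506192-32530158, Cyp4f16 chr17:32536545-32551798, Cyp4f15 chr17:32685631-32703352, Cyp4f14 chr17:32903357-32917376 and Cyp4f13 chr17:32924688-32947415. Cyp4f18 lies apart at chr8:71988482-72009668. The coding sequences of the 6 genes, taken from 1 transcript each of GENCODE M21 and 1572 to 1605 bases long, were 74.3% identical for the pair of Cyp4f15 and Cyp4f13 and 84.3% for the pair of Cyp4f16 and Cyp4f17, with the other pairs in between. Of all 50-base windows of a transcript, the share found exactly in a transcript of another Cyp4f gene was 2.72% for Cyp4f14, 2.45% for Cyp4f15, 2.7% for Cyp4f13, 3.25% for Cyp4f17 and 0.423% for Cyp4f18. For Cyp4f16 it was 26.5%, and 544 of its 582 shared windows were found in Cyp4f37, so reads of Cyp4f16 and Cyp4f37 can be traded and the level of Cyp4f16 is the least certain of the family. The sources used here do not give the read length of the libraries.

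The stretch before the transcription start is shown for Cyp4f14 and Cyp4f15, the pair of most abundant members, since they lie in the same cluster and their transcripts differed in response. Each is 250 bases up to the start used by the promoter table, 5′ to 3′ on the gene's strand, from RefSeq on GRCm38.p6, at chr17:32917357-32917606 (minus strand) for Cyp4f14 and chr17:32685409-32685658 (plus strand) for Cyp4f15. That start lies 20 bases inside the gene span given above for Cyp4f14 and 28 bases inside that of Cyp4f15, so the last bases of each stretch fall within the span. Capitals mark ATTGG, the reverse complement of the CCAAT box.
Cyp4f14: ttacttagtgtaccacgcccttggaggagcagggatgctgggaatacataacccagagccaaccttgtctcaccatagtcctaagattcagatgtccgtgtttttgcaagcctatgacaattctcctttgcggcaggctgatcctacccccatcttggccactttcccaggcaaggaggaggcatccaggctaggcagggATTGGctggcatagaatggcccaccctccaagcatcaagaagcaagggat
Cyp4f15: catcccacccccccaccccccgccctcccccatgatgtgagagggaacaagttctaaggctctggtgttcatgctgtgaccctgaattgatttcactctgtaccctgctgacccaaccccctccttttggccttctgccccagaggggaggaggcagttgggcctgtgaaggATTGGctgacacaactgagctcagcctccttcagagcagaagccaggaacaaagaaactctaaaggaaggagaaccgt

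The same letters recur close to the start in the 5 members that have a promoter entry in the RefSeq table. Of these members Cyp4f14 passed the test between groups, Cyp4f18 was not tested and the others did not pass. The 35 bases around the match nearest the start are shown because they look alike across these members. They lie at chr17:32917387-32917421 (minus) for Cyp4f14, chr17:32685566-32685600 (plus) for Cyp4f15, chr17:32947418-32947452 (minus) for Cyp4f13, chr17:32536519-32536553 (plus) for Cyp4f16 and chr8:72009655-72009689 (minus) for Cyp4f18.
Cyp4f14: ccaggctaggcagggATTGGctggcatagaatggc
Cyp4f15: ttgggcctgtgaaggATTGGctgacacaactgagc
Cyp4f13: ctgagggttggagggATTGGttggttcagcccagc
Cyp4f16: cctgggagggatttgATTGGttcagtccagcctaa
Cyp4f18: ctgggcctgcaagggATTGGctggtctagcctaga
Counted from the start of the promoter table, which lies 12 to 54 bases inside the gene spans of these 5 members, the first base of the match stood 50 bases before the start in Cyp4f14, 78 in Cyp4f15, 76 in Cyp4f13, 23 in Cyp4f16 and 48 in Cyp4f18, which has a further match 113 bases before its start. ATTGG on the sense strand was found in 22.2% of all 27025 promoters of 300 bases in the table (250 before and 50 after the start) and on either strand in 38.0%. The longer GGATTGG, which overlaps it, was present on the sense strand in 4 of the 5 members, all but Cyp4f16, and in 2.48% of all promoters. These letters were chosen after the sequences had been seen, and the members are related genes, so the matches are not independent. The direct repeat AGGTCANAGGTCA, the consensus of PPAR binding, was searched on both strands with up to 2 mismatches. It was found in 3.79% of all promoters and, among the 5 members, in Cyp4f16, where its first base lay 181 bases before the start on the antisense strand.

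The libraries carried the transcripts of liver, and the targeted gene was read in each. Levels are FPKM, fragments counted per length of transcript and per size of the library. Alb, the gene of albumin, stood at 33190 ± 4050 FPKM in CMC and 21280 ± 1790 FPKM in DEHP (SD, n = 5 each, limma adjusted p = 0.000445), and all 10 hepatocyte markers passed the filter on low values. Pparg was called higher in DEHP, at 2.4 to 5.9 FPKM in CMC and 5.5 to 9.4 FPKM in DEHP (log2 difference 0.89, SE 0.21, limma adjusted p = 0.0118), and whole-gene FPKM cannot show which exons were removed.

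Cyp4f14, the most abundant member, was the member that changed. Its level was 163.99, 149.38, 157.64, 183.74 and 163.25 FPKM in CMC 1 to 5 and 97.63, 120.92, 87.89, 93.17 and 100.01 FPKM in DEHP 1 to 5. Every DEHP library lay below every CMC library, and DEHP 2 was the highest of its group. The mean fell from 163.6 ± 12.7 to 99.92 ± 12.6 FPKM (SD, n = 5 each). On the log2(FPKM + 0.5) scale the difference was -0.71 (SE 0.09, 95% interval -0.91 to -0.52), which is 0.61 times the CMC level, with an adjusted p of 0.000183 in limma's moderated test over 11242 genes. Of all tested genes, 1.25% had a lower log2 fold change than Cyp4f14. Of the 10 hepatocyte markers 4 were called lower (Alb, Serpina1c, Ttr and Apoa1), 1 higher (Cyp2e1) and 5 neither. Their summed level was 62900 to 77200 FPKM in CMC and 47600 to 54000 FPKM in DEHP, the same direction as Cyp4f14. The 4 called lower are the most abundant of the list and make up most of that sum. The part of the hepatocyte markers in the result was not tested. In bulk liver RNA, fewer cells of a type and less RNA per cell cannot be told apart.

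**Figure D1:**
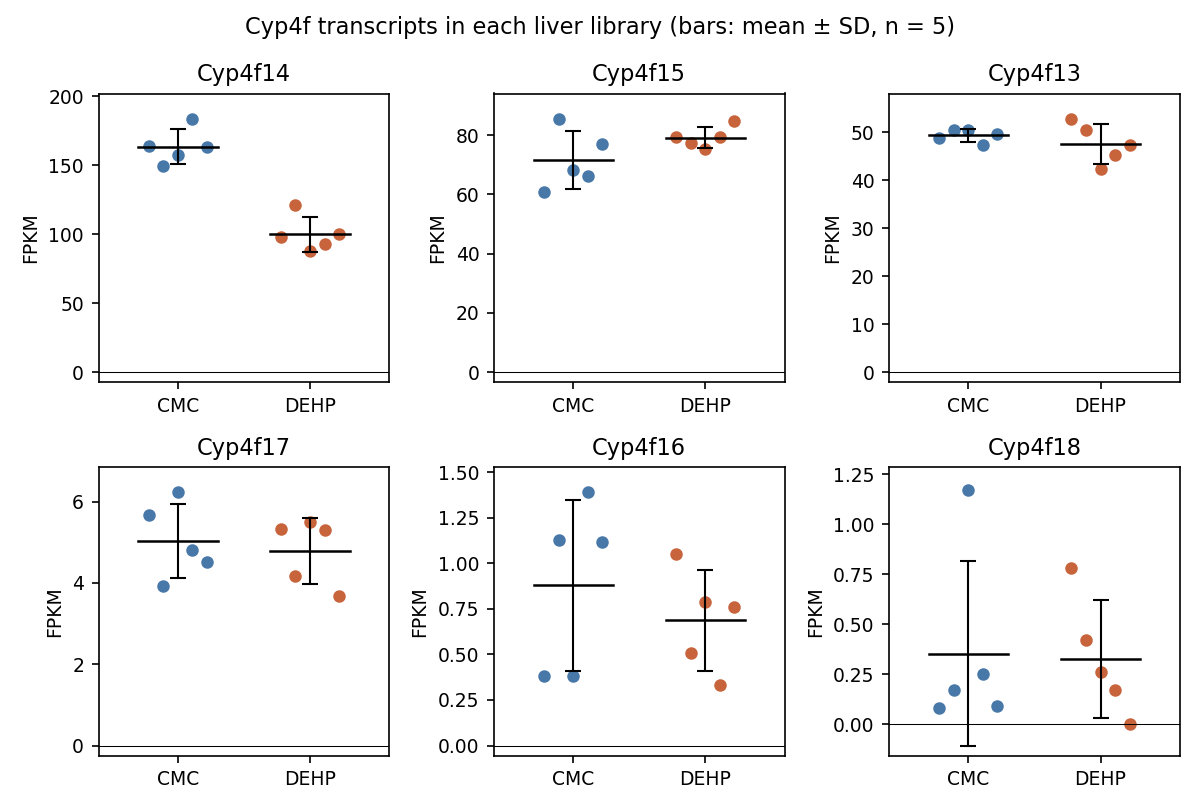
FPKM of each Cyp4f member (vertical axis, linear, its own range per panel) in the 5 CMC and 5 DEHP libraries, 1 point per library in replicate order from left to right, with the mean and SD as bars. The Cyp4f14 points of DEHP, 87.89 to 120.92, all lie below those of CMC, 149.38 to 183.74, and the points of the other 5 members overlap between the groups.

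Cyp4f15, the next in level, did not pass the test. Its level was 60.87, 85.57, 68.35, 66.2 and 77.12 FPKM in CMC 1 to 5 and 79.41, 77.4, 75.39, 79.31 and 84.76 FPKM in DEHP 1 to 5. The DEHP libraries lay within a narrow range inside the spread of the CMC libraries. The means were 71.62 ± 9.75 and 79.25 ± 3.49 FPKM (SD, n = 5 each), a log2 difference of 0.15 (SE 0.09, 95% interval -0.039 to 0.35, limma adjusted p = 0.312).

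Cyp4f13, the neighbour of Cyp4f14 on the chromosome, did not pass either. Its level was 48.86, 50.61, 50.57, 47.43 and 49.73 FPKM in CMC 1 to 5 and 52.85, 50.59, 42.35, 45.21 and 47.36 FPKM in DEHP 1 to 5. The DEHP libraries were spread to both sides of the CMC libraries: DEHP 1 lay above all of them, DEHP 3, 4 and 5 lay below all of them, and DEHP 2 fell inside their range. The means were 49.44 ± 1.33 and 47.67 ± 4.18 FPKM (SD, n = 5 each), with a log2 difference of -0.056 (SE 0.08, 95% interval -0.22 to 0.11, limma adjusted p = 0.706). The interval excludes a fall as large as that of Cyp4f14.

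Cyp4f17 was present at a low level. It stood at 5.66, 3.93, 6.23, 4.81 and 4.52 FPKM in CMC 1 to 5 and at 5.32, 4.16, 5.5, 5.3 and 3.69 FPKM in DEHP 1 to 5. The groups overlapped, with CMC 1 and 3 above every DEHP library and DEHP 5 below every CMC library. The log2 difference was -0.062 (SE 0.15, 95% interval -0.37 to 0.25, limma adjusted p = 0.849), between means of 5.03 ± 0.916 and 4.79 ± 0.814 FPKM (SD, n = 5 each). Its sign turned with 3 of 23 alternative settings.

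Cyp4f16 and Cyp4f18 were near the lower end of detection. Cyp4f16 stood at 0.38, 1.13, 0.38, 1.39 and 1.12 FPKM in CMC 1 to 5 and at 1.05, 0.51, 0.79, 0.33 and 0.76 FPKM in DEHP 1 to 5. Its groups overlapped, and its log2 difference of -0.17 had the widest interval of the family, -0.72 to 0.37 (SE 0.25, limma adjusted p = 0.733). It ran from -0.32 without CMC 1 or CMC 3 to -0.042 without CMC 4. Cyp4f18 stood at 0.08, 0.17, 1.17, 0.25 and 0.09 FPKM in CMC 1 to 5 and at 0.78, 0.42, 0.26, 0.17 and 0 FPKM in DEHP 1 to 5. It reached 0.5 FPKM in only 2 libraries, below the filter of 5 libraries, and was therefore not tested. Since FPKM carries no read numbers, the depth behind these low values is unknown.

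**Figure D2:**
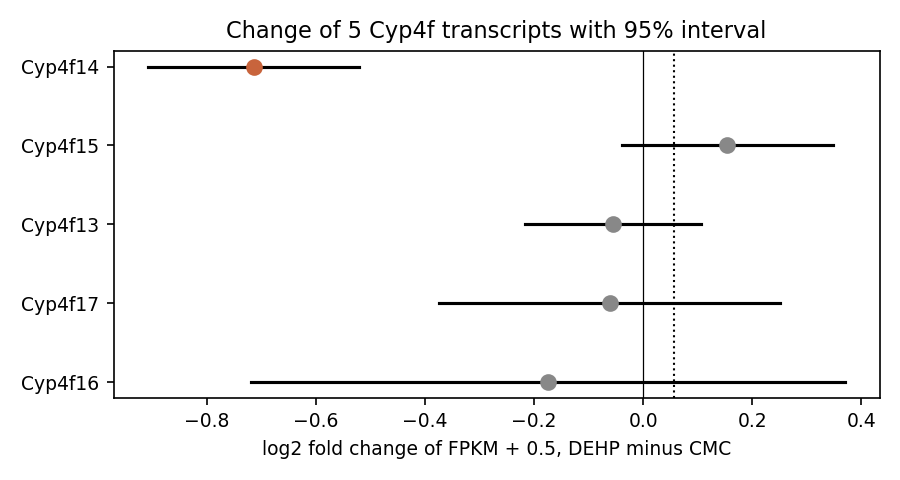
Log2 fold change of FPKM + 0.5, DEHP minus CMC (horizontal axis), for the 5 tested Cyp4f members, with the 95% interval as a line, a filled orange point for adjusted p under 0.05 and a grey point otherwise. The dotted line is the median of all tested genes, 0.056, and the interval of Cyp4f14, -0.91 to -0.52, is the one that lies clear of 0.

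Of the 6 members, 5 passed the filter on low values, 1 of them was called lower and 0 were called higher (limma, adjusted p under 0.05), while 0 further members had an unadjusted p under 0.05. Among all 11242 tested genes 9.12% were called higher and 2.4% lower, 1025 and 270 genes. This split depended on scaling, with 639 higher and 445 lower after median-of-ratios scaling and 611 higher and 546 lower after quantile normalization. The groups were fully apart, with DEHP lower, for 2.14% of all tested genes and for 1 of the 5 tested members. The median log2 fold change was -0.062 over the tested members and 0.056 over all tested genes. A single member called lower does not set the family as a whole apart from that background.

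The order of levels, Cyp4f14 above Cyp4f15, Cyp4f13, Cyp4f17, Cyp4f16 and Cyp4f18, was the same in 9 of 10 libraries. In the remaining library, CMC 3, Cyp4f18 stood above Cyp4f16. Neighbours in this order had ranges that did not overlap in either group, except Cyp4f16 and Cyp4f18, whose ranges overlapped in both. The order was thus the same in both groups, and the distance between its first 2 members was narrower in DEHP.

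The summed level of the 6 members was 290.9 ± 9.44 FPKM in CMC and 232.7 ± 15.8 FPKM in DEHP (SD, n = 5 each). Without Cyp4f14 the sums were 127.3 ± 10.1 and 132.7 ± 5.84 FPKM. Cyp4f14 made up 58.6, 51.37, 55.44, 60.48 and 55.18% of the family sum in CMC 1 to 5 and 41.19, 47.61, 41.42, 41.69 and 42.27% in DEHP 1 to 5. The share of Cyp4f15 was 24.6% ± 3.23 in CMC and 34.2% ± 2.26 in DEHP, and that of Cyp4f13 was 17.0% ± 0.86 and 20.5% ± 1.02 (SD, n = 5 each). These sums and shares are a description and carry no test.

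**Figure D3:**
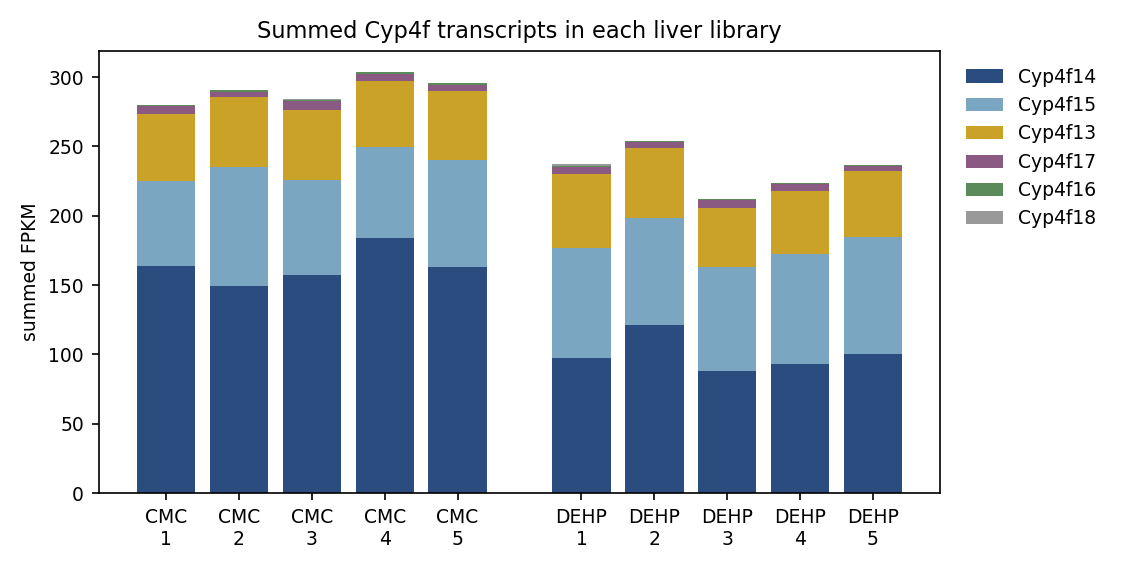
Summed FPKM of the 6 Cyp4f members (vertical axis) in each library, with 1 stacked bar per library and 1 colour per member. The lowest segment, Cyp4f14, is shorter in all 5 DEHP bars, and the summed height of the other segments is 115.85 to 141.41 FPKM in CMC and 124.29 to 139.41 FPKM in DEHP.

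A ratio of members within a library moves with library scaling only through the added 0.5 FPKM, which weighs on the lowest member, Cyp4f16, and it tests whether members differed in response. The tested log2 ratios add 0.5 to each FPKM. In plain FPKM the ratio of Cyp4f14 to Cyp4f15 was 2.69, 1.75, 2.31, 2.78 and 2.12 in CMC 1 to 5 and 1.23, 1.56, 1.17, 1.17 and 1.18 in DEHP 1 to 5. All DEHP values lay below all CMC values, with DEHP 2 and CMC 2 nearest each other. The log2 ratio was lower by 0.87 in DEHP (1.19 ± 0.271 against 0.33 ± 0.179, SD, n = 5 each, exact two-sided permutation p = 0.00794, the smallest these groups allow, and 0.0397 adjusted over 10 pairs of members). Without DEHP 1, 3, 4 or 5 the adjusted exact permutation p was 0.0794, at log2 differences of -0.86, -0.84, -0.84 and -0.85.

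The ratio of Cyp4f14 to its neighbour Cyp4f13, in plain FPKM, was 3.36, 2.95, 3.12, 3.87 and 3.28 in CMC 1 to 5 and 1.85, 2.39, 2.08, 2.06 and 2.11 in DEHP 1 to 5. These groups did not overlap either, and the log2 ratio differed by -0.66 (exact permutation p = 0.00794, adjusted p = 0.0397). Without DEHP 1, 3, 4 or 5 the adjusted exact permutation p was again 0.0794, at -0.61, -0.66, -0.65 and -0.66. Against Cyp4f17 the log2 ratio of Cyp4f14 differed by -0.65 and against Cyp4f16 by -0.54, with exact permutation p-values of 0.0794 and 0.238 after adjustment. Of the 10 pairs, 2 passed. Among pairs without Cyp4f14 the smallest adjusted exact permutation p was 0.139, for Cyp4f15 over Cyp4f13, whose log2 ratio differed by 0.21.

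**Figure D4:**
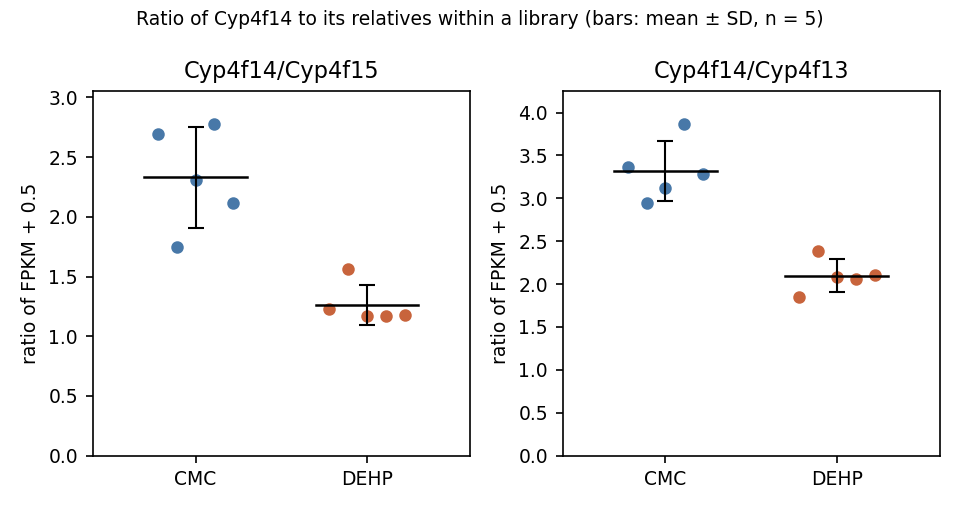
Ratio of Cyp4f14 to Cyp4f15 (left) and to Cyp4f13 (right) (vertical axis, linear, from 0), with 1 point per library and bars for the mean and SD. The plotted values are ratios of plain FPKM, although the axis label names FPKM + 0.5. On the left the DEHP points span 1.17 to 1.56 and the CMC points 1.75 to 2.78, and on the right 1.85 to 2.39 and 2.95 to 3.87.

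The other Cyp4f genes of the table were at or near 0. Cyp4f39, whose human counterpart CYP4F22 makes the omega-hydroxy lipids of the skin barrier, stood between 0.05 and 0.37 FPKM in CMC and between 0 and 0.49 FPKM in DEHP. Cyp4f37 was above 0 in 1 library, CMC 5, at 0.05 FPKM. None of them passed the filter.

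The Cyp4a branch stood in contrast to Cyp4f14. Of 8 tested other Cyp4 genes 6 were called higher and 0 lower, with a median log2 fold change of 1.77. All those called were Cyp4a genes. Beside this list and those below stand 9.12% of all tested genes called higher and 2.4% called lower. Cyp4a10, a lauric acid hydroxylase, rose from 114 ± 47.0 to 2396 ± 438 FPKM and Cyp4a14 from 88.7 ± 84.9 to 2447 ± 454 FPKM (SD, n = 5 each, limma adjusted p = 0.000143 and 0.00122). Cyp4a31 and Cyp4a12b rose by 3.78 and 2.05 on the log2 scale (limma adjusted p = 1.66e-05 and 2.8e-05) and Cyp4a32 by 1.04 (limma adjusted p = 0.00218). The Cyp4a genes are near-identical copies in part, and reads can be traded among them. Outside the Cyp4a branch, Cyp4b1 stood at 5.83 ± 2.72 FPKM in CMC and 5.42 ± 1.12 FPKM in DEHP (SD, n = 5 each). Its log2 difference was -0.033 (limma adjusted p = 0.95). Cyp4v3, a fatty acid hydroxylase outside both branches, stood at 161.5, 112.25, 179.07, 153.54 and 150.65 FPKM in CMC 1 to 5 and 126.93, 132.11, 95.96, 127.08 and 105.05 FPKM in DEHP 1 to 5, a log2 difference of -0.36 that missed the threshold (limma adjusted p = 0.0797).

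Alcohol and aldehyde dehydrogenases, the enzyme classes that can carry omega-hydroxy lipids onward, were called higher in 5 of 10 tested genes and lower in 0 (median log2 fold change 0.22). Whether each of them acts on such lipids was not tested. Aldh3a2, the fatty aldehyde dehydrogenase of the endoplasmic reticulum, rose from 57.5 ± 7.44 to 204.8 ± 33.1 FPKM (SD, n = 5 each, limma adjusted p = 3.76e-07). Aldh1a1, Adh1, Aldh9a1 and Aldh7a1 rose by 1.05, 0.63, 0.61 and 0.32 on the log2 scale. In a broad list of electron partners and associated proteins of P450 enzymes, 4 of 7 tested genes were called higher and 0 lower (median 0.34). Por, the P450 reductase itself, rose from 122 ± 33.7 to 200.2 ± 53.3 FPKM (SD, n = 5 each, limma adjusted p = 0.0334), and Cyb5b, Cyb5a and Pgrmc1 rose by 0.41, 0.35 and 0.31 on the log2 scale.

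Among genes of the leukotriene pathway 2 of 10 tested genes were called higher and 0 lower (median 0.13). These were Abcc4, an efflux pump, which stood at 0.266 ± 0.195 and 1.35 ± 0.509 FPKM, and Ptgr2, a prostaglandin reductase, at 20.5 ± 1.56 and 24.8 ± 1.21 FPKM (SD, n = 5 each, limma adjusted p = 0.00262 and 0.0441). Abcc4 stood at 0.05, 0.53, 0.2, 0.15 and 0.4 FPKM in CMC 1 to 5 and passed the filter on low values only through the DEHP libraries, where it was high. Its call is therefore set aside, which leaves Ptgr2 as the called gene. Over all tested genes 9.12% were called higher, so this list does not stand apart from that background. Of 16 tested genes for other eicosanoid enzymes 6 were called higher and 2 lower (median 0.19). Ephx2, the soluble epoxide hydrolase, rose by 0.82 and Hpgd, which inactivates prostaglandins, by 0.89 on the log2 scale. Ptgds, a prostaglandin D synthase, fell by 1.56 from a low level, and Cyp2j9 fell by 0.78 (limma adjusted p = 0.0172 and 0.0282).

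For vitamins E and K, substrates of Cyp4f enzymes, 4 of 11 tested handling genes were called higher and 1 lower (median 0.12). Pltp, the phospholipid transfer protein, rose from 18.1 ± 1.9 to 174 ± 73.6 FPKM (SD, n = 5 each, limma adjusted p = 0.000141), and Nqo1, a quinone reductase, and Sec14l2, which binds tocopherol, rose by 1.12 and 0.53 on the log2 scale. Afm, the vitamin E-binding plasma protein afamin, fell from 123 ± 6.48 to 91.1 ± 7.54 FPKM (SD, n = 5 each, limma adjusted p = 0.00218). Very long chain fatty acid and acylceramide genes were called higher in 5 of 8 tested genes and lower in 0 (median 0.59), with Abcd3, a peroxisomal transporter, at 129 ± 7.39 and 224 ± 35.7 FPKM (SD, n = 5 each, limma adjusted p = 0.000169).

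**Figure D5:**
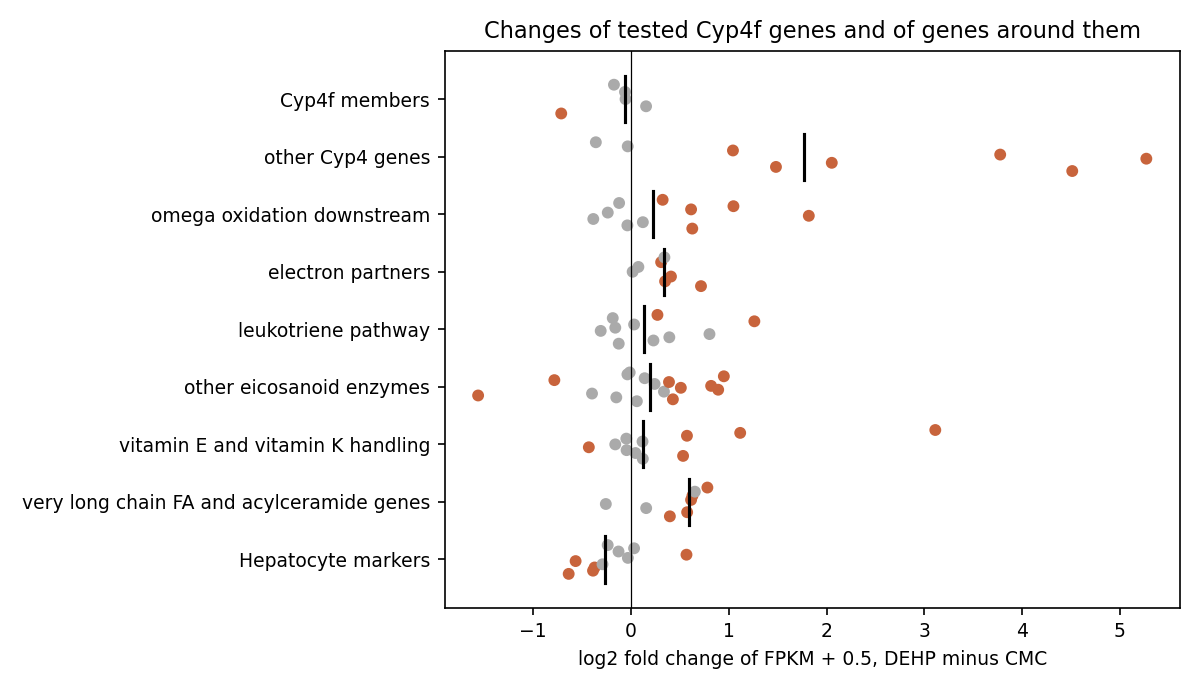
Log2 fold change of FPKM + 0.5, DEHP minus CMC (horizontal axis), of each tested gene in the Cyp4f family and in the gene groups around it, 1 point per gene, orange for adjusted p under 0.05 and grey otherwise, with the median as a bar. The other Cyp4 genes reach 5.27 with a median of 1.77, while the Cyp4f median is -0.062.

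Cyp4f18 is known from leukocytes, and none of the tested leukocyte markers was called. Neutrophil, dendritic cell and lymphocyte markers were low, while those of Kupffer cells and macrophages were well above them. The 12 neutrophil markers summed to 6.84 to 17.1 FPKM in CMC and 4.15 to 18.3 FPKM in DEHP. Camp and Mmp8 were at 0 in every library, and 0 of 3 tested markers were called. The tested ones, Ly6g, S100a8 and S100a9, had means of 7.01, 1.95 and 1.41 FPKM in CMC. In DEHP their means were 6.55, 1.37 and 1.35 FPKM. Kupffer cell and macrophage markers summed to 217 to 303 FPKM in CMC and 271 to 321 FPKM in DEHP, with 0 of 12 called by limma. Of these 12, limma gave 3 an unadjusted p under 0.05, each of them higher in DEHP. None of 2 tested dendritic cell, 3 lymphocyte, 8 endothelial, 8 stellate and fibroblast and 5 cholangiocyte markers was called. At an unadjusted p under 0.05 limma counted 2 lymphocyte markers, 1 stellate marker and 0 in the other of these lists. The lymphocyte markers moved in opposite directions, and the stellate marker was lower in DEHP. The share of all tested genes at that unadjusted limma threshold is not given here, so these counts have no background beside them.

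The genes around the members were mostly not called. Of 14 tested genes starting within 500 kb of a member on chromosome 17, 1 was called lower and 0 higher, with a median log2 fold change of -0.11 beside 0.056 over all tested genes, of which 2.4% were called lower. This was Pglyrp2, a secreted peptidoglycan-degrading amidase of hepatocytes, with means of 59.4 and 46.2 FPKM and a log2 difference of -0.35 (SE 0.094, limma adjusted p = 0.0263). Around Cyp4f18 on chromosome 8, 2 of 21 tested genes were called higher and 0 lower (median log2 fold change 0.13), a share close to the 9.12% of all tested genes called higher. Slc27a1, a fatty acid transport protein, rose from 2.05 to 20.9 FPKM (limma adjusted p = 6.75e-08) and Pgls, of the pentose phosphate pathway, from 91.6 to 122 FPKM (limma adjusted p = 0.00861).

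Deviations of each library from its group mean, on the log2 scale, were compared over the 10 libraries with those of 10096 genes of at least 1 FPKM on average. The genes most like Cyp4f14 were Serp1 (Pearson r = 0.968), Lman1 (0.954) and Calr (0.925), which encode proteins of the endoplasmic reticulum and the early secretory path. None of the 3 passed the test between groups (limma adjusted p = 0.149, 0.893 and 0.148). For Cyp4f15 they were Gstk1 (0.939), Snai2 (0.921) and Ahcy (0.919), for Cyp4f13 Gcn1l1 (0.876), Cfap20 (0.868) and Zfp800 (0.859), for Cyp4f17 Gdf2 (0.943), Hdac2 (0.931) and Ttc19 (0.926), and for Cyp4f16 Kdelr2 (0.963), Gipc1 (0.954) and Eif1ax (0.925). Between members the same measure ran from -0.687 for Cyp4f15 and Cyp4f17 to 0.455 for Cyp4f15 and Cyp4f16. These r values are the extremes of a long list over few libraries that share the same normalization, and they are given as a description.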

How the data were processed

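Liver RNA libraries were made with an Illumina TruSeq kit from 1 ug of total RNA and sequenced on Illumina instruments, per the labels' protocols. The deposited table gives FPKM per gene and library, the unit named per the file headers, and holds no counts, so that total depth is unknown and no count model was used. The submitters' processing notes name Cuffdiff and, as builds, mm10 and GRCm38, without version or role. No aligner is given in the sources used here. FPKM is relative to the library total, so a fall of abundant transcripts raises other values.

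Genes at 0.5 FPKM or more in at least 5 of 10 libraries (11242 of 16874) were tested as log2(FPKM + 0.5) with limma 3.58.1 in R 4.3.3 (intensity trend, robust variance), calling genes at a Benjamini-Hochberg adjusted p under 0.05. A fold change on that scale understates the change of low genes. The limma code and the permutation code were tested on simulated data. Coordinates came from a RefSeq gene table of GRCm38.p6 matched by gene ID (16833 IDs matched), and transcripts from GENCODE M21. Ratios between members used exact two-sided permutation tests over 252 regroupings. Group levels are means ± SD. Pairs of libraries correlated at 0.964 to 0.978 on the log2 scale across groups and at 0.976 or more inside a group, and FPKM summed to 688410 to 747577 per library.

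The members, the gene lists and the alternatives were chosen with earlier results of these data known. Named are the 6 members, Pparg, up to 5 called genes per list by smallest p, and the 3 genes most like each tested member. A gene that this rule takes is not reported here. Cyp2j9, Cyp4b1, Cyp4v3, the tested neutrophil markers and the neighbouring genes were named after their values were seen. The alternatives changed the pseudocount (0.1 or 1), the filter (none or 2 FPKM), the scaling (median of ratios, quantile, or after the 10 most abundant genes were taken out), the variance model (plain limma, array weights), the test (per-gene exact permutation), the terms of the fit (replicate block, a covariate from 17 circadian clock genes) or the libraries included. Of those 17 clock genes limma called 0, and 3 had an unadjusted p under 0.05, each of them higher in DEHP. The share of all tested genes at that threshold is not given here. The covariate, their first principal component, was 3.85, 2.98, 4.36, -0.84 and -2.65 in CMC 1 to 5. In DEHP 1 to 5 it was -1.34, -3.15, 1.33, -1.2 and -3.35. CMC 1 to 3 had the highest values, so the component was not evenly spread over the groups. Other software was Matplotlib 3.10.9, Biopython 1.88, pandas 2.3.3, SciPy 1.17.1 and NumPy 2.4.6 under Python 3.11.15.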

Additional observations from a re-analysis of the deposited data

Results flagged for a closer look

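In groups of 5 libraries, a highest or lowest value was marked where its gap to the next value exceeded 0.71 of the group's range. Chance marks about 1 in 20 such groups, and 7 of 144 groups were marked, so the number is close to what chance gives. Among the members, Cyp4f18 stood at 1.17 FPKM in CMC 3, far above the other CMC libraries, which reached 0.25 FPKM at most. In DEHP 2 the share of Cyp4f14 in the family sum was 47.61%, above 41.19 to 42.27% in the other DEHP libraries, and the log2 ratio of Cyp4f14 to Cyp4f15 was 0.6403 there, above 0.22 to 0.30. Without DEHP 2 the log2 fold change of Cyp4f14 was -0.78 (limma adjusted p = 5.97e-05).

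Of the other genes, Afm was lowest in CMC 5 at 111.5 FPKM, Cyp2e1 lowest in CMC 2 at 2231 FPKM, Por highest in DEHP 5 at 294.8 FPKM and Ptgr2 lowest in CMC 1 at 17.69 FPKM.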

How the results depend on the processing

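The fall of Cyp4f14 kept its direction under all 23 alternatives, with log2 fold changes of -0.85 to -0.67, and its call under 22. The exception was the exact permutation test per gene (-0.71, adjusted p = 0.0742), which was the smallest adjusted p that any gene reached there, so that 0 genes passed, although 1997 genes higher, 684 lower and 1 member had an unadjusted p under 0.05. The replicate block gave -0.71 with a limma adjusted p of 0.00196 for Cyp4f14, and it changed no call of a member. Deviations from the group means correlated at -0.072 to 0.049 between same-numbered libraries. Of the CMC libraries, 0 were nearest to their own number by this measure. These values cannot show whether the numbers mark a pairing, and the numbers are used here as names only. Cyp4f17 turned to 0.11 with the clock covariate and ran from -0.14 to 0.019 when 1 library was left out. The other tested members were called under no alternative, with log2 fold changes of 0.015 (quantile normalization) to 0.22 (without CMC 2) for Cyp4f15, -0.18 (quantile normalization) to -0.015 (without DEHP 3) for Cyp4f13 and -0.44 (clock covariate) to -0.042 (without CMC 4) for Cyp4f16.

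Counts of all tested genes moved to 639 higher and 445 lower with median-of-ratios scaling, 611 and 546 with quantile normalization, and 615 and 161 with the clock covariate. Pathway genes called lower were 6 with quantile normalization and 1 with the clock covariate, against 3. Cell type markers called higher were 0 with median-of-ratios scaling and 2 without CMC 2 and DEHP 5, against 1, and 1 to 2 when 1 library was left out. Markers called lower were 2 with quantile normalization, against 4. The summed FPKM of the members differed by -71.4 with median-of-ratios scaling, against -58.3. These scalings moved the median of all genes by at most 0.073.

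Without CMC 2 and DEHP 5 the log2 ratios of Cyp4f14 to Cyp4f15 and to Cyp4f13 differed by -0.94 and -0.70 (exact permutation, adjusted p = 0.143 each). With 4 libraries a group, the unadjusted p of both was the smallest such groups allow, so this setting could not show whether the call was lost for another reason. With 1 library left out they ran from -0.97 to -0.80 and from -0.71 to -0.60, with an adjusted exact permutation p of 0.0794 for both without DEHP 1, 3, 4 or 5 and of 0.0397 without any other library. Those of Cyp4f13 to Cyp4f17, Cyp4f13 to Cyp4f16 and Cyp4f17 to Cyp4f16, none of which passed, ran from -0.074 to 0.096, -0.028 to 0.27 and -0.045 to 0.33.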
